A study of Mus musculus with 6 samples.

Results

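The cytosolic ribosomal protein genes were examined in 3T3-L1 adipocytes, a mouse cell line that becomes fat-storing in culture, after adenoviral delivery of *LacZ* or *Lmo3*. Members were chosen by symbol alone: every Rpl or Rps symbol with a number, together with *Rplp0*, *Rplp1*, *Rplp2* and *Rpsa*, with symbols ending in -ps left out. This gave 84 members of 24421 gene symbols, of which 51 belonged to the large subunit and 33 to the small subunit. Both groups were made from the same cell line, labelled strain C57BL/6, and were differentiated alike with 870 nM insulin, 5 µM TZD, 1 µM Dex, 500 µM IBMX and 10% CS, with IBMX and Dex withdrawn on day 3. On day 7 the cells received 100 pfu/cell of a control virus carrying *LacZ* (AdLacZ, 3 libraries) or a virus carrying *Lmo3* (AdLmo3, 3 libraries), and total RNA was taken 72 h later. The 3 libraries of a group came from separate infections of 1 cell line, so that p-values describe the spread between infections and not between animals. Single reads of 75 bp were counted per gene symbol, and 28035639 to 38332335 counts per library fell on genes. *Lmo3* had 0 counts in all 6 libraries, and since the virus carried a codon-optimized *Lmo3* this gene gave no check of the labels. Of 10 adipocyte markers, 8 were called higher in AdLmo3 (edgeR, adjusted p under 0.05), where 346 of all 12766 genes tested were called higher. The 10 markers summed to between 11770 and 12214 CPM (counts per 1000000, scaled between libraries) in AdLacZ and between 17646 and 21828 CPM in AdLmo3. They thus move with the groups, and the part of this difference in the values below was not tested. Macrophage markers summed to 10.8 to 14.3 CPM with *C1qa* and *C1qb* at 0, endothelial markers to 1.07 to 2.38 CPM, and the preadipocyte or fibroblast list overlapped between the groups, at 16376 to 21243 CPM in AdLacZ and 16055 to 24349 CPM in AdLmo3.

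A ribosome is built from a small subunit, which reads the messenger RNA, and a large subunit, which joins the amino acids and releases the chain through an exit tunnel. Each cytosolic ribosomal protein is generally needed in a single copy per particle, so that cells make these proteins in matched amounts, and protein left unassembled is degraded. In mammals most of their messenger RNAs begin with a C followed by a run of pyrimidines (the 5′ terminal oligopyrimidine, or TOP, sequence), through which the kinase complex mTORC1 and the RNA-binding protein LARP1 control how much of each transcript is translated. Levels of messenger RNA, which are what was measured here, therefore need not follow the amount of protein made. In bulk RNA, fewer transcripts per cell and fewer cells of a type cannot be told apart.

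The starts of 5 members are printed because they show how the TOP sequence appears in the annotation and how far the annotated starts depart from it. Each line holds 15 bases before and 15 bases from the annotated start (RefSeq, GRCm38.p6, 5′ to 3′ on the gene's strand), and capitals mark the unbroken run of pyrimidines that begins at the start.
*Rps6* (chr4:86857353-86857382, minus strand): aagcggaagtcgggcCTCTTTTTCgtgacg
*Rpl38* (chr11:114668565-114668594, plus strand): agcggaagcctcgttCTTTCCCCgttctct
*Rpl15* (chr14:18270972-18271001, minus strand): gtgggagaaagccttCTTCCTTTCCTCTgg
*Rps24* (chr14:24490663-24490692, plus strand): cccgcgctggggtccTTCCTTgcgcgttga
*Rplp0* (chr5:115559452-115559481, plus strand): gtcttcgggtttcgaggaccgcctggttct
*Rps6*, *Rpl38* and *Rpl15* open with C and runs of 9, 8 and 13 pyrimidines, *Rps24* has a run of 6 that opens with T, and *Rplp0* has none at its annotated start. Of the 63 members with a window in the table, 12 (19.0%) had a C at the start and 4 pyrimidines after it, against 2.49% of 27025 genes and 0 of 66 mitochondrial ribosomal protein genes. When the start was allowed to shift by up to 10 bases either way, 36 members (57.1%), 30.8% of all genes and 29 of 66 mitochondrial ribosomal protein genes (43.9%) had such a run, all counted on the gene's own strand. The letters GGAAGT were searched on both strands of the window from 250 bases before to 50 bases after the start. They occurred in 47.6% of members, 24.1% of all genes and 28.2% of 9679 genes with enough counts for the test below. GGGCGG, searched alike, occurred in 60.3% of members, 35.9% of all genes and 64.7% of those 9679 genes. In the same order, CCAAT occurred in 30.2%, 37.9% and 39.3%, and AAGATGGCG in 6.35%, 1.49% and 3.30%. The letters TATAAA occurred in the 40 bases before the start of 1 of the 63 members (1.59%). That share was 2.55% of all genes and 1.36% of those 9679 genes. These matches describe letters near annotated starts, and a member without a match may start elsewhere in these cells.

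The first comparison asked how much of the transcriptome the members took up in each group. They held 1.77%, 1.88% and 1.73% of gene counts in AdLacZ replicates 1, 2 and 3, and 1.70%, 1.68% and 1.48% in AdLmo3 replicates 1, 2 and 3. Every AdLmo3 library thus lay below every AdLacZ library, narrowly for the nearest pair, and the group means were 1.79% ± 0.0803 and 1.62% ± 0.122 (SD, n = 3 each). The difference of -0.171 percentage points shrank to -0.101 without AdLmo3 replicate 3. The share uses total counts as its base, a scale on which the median log2 fold change of all genes was itself -0.07. The ratio of large to small subunit counts, which does not depend on how libraries are scaled, was 1.51, 1.52 and 1.52 in AdLacZ and 1.53, 1.53 and 1.53 in AdLmo3. Its means of 1.517 ± 0.0102 and 1.528 ± 0.00324 (SD, n = 3 each) differed by 0.0111. Before rounding, every AdLmo3 ratio (1.526 to 1.532) lay above every AdLacZ ratio (1.506 to 1.523), and the difference was 0.00518 without AdLacZ replicate 1.

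**Figure D1:**
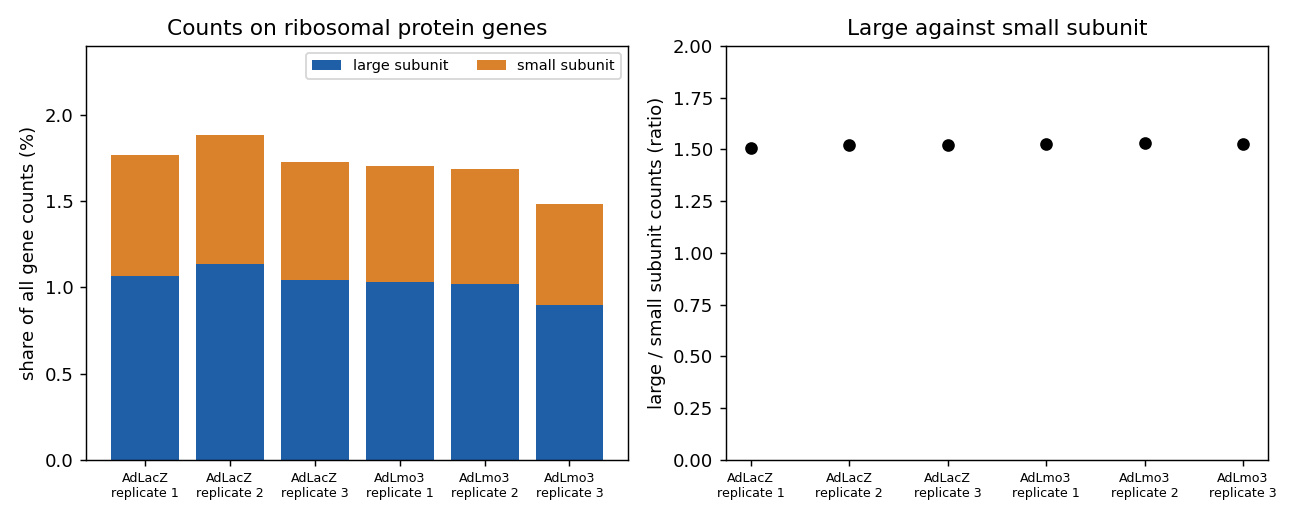
Left, percent of all gene counts on large subunit genes (blue) and small subunit genes (orange) in each of the 6 libraries. Right, the ratio of large to small subunit counts in the same libraries. The share ranges from 1.48% in AdLmo3 replicate 3 to 1.88% in AdLacZ replicate 2, and the ratio from 1.51 to 1.53.

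The second comparison asked which single members differed between AdLmo3 and AdLacZ. Enough counts for a test were present for 78 members, 46 of the large and 32 of the small subunit, among 12766 genes tested with edgeR's quasi-likelihood test. No member was called at an adjusted p under 0.05 (0 of 78), whereas 4.28% of all genes tested were called. DESeq2 and limma voom also called 0 members, beside 8.32% and 4.4% of all genes. At an unadjusted p under 0.05, 6 members passed in edgeR, all lower in AdLmo3, where 20.6% of all genes passed and 9.54% passed with AdLmo3 lower. By the same measure 7 members passed in DESeq2 (13.8% of all genes) and 8 in limma voom (20.6% of all genes), again all lower. Those 6 were *Rps25*, *Rpl13a*, *Rpl27*, *Rpl38*, *Rpl10* and *Rps24*, and the smallest edgeR adjusted p among members was 0.144, for *Rps25*.

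The fold changes leaned one way but were small. Of the 78 members, 66 had a value below 0 and 12 above, whereas 49.6% of all genes lay below 0. The median log2 fold change of AdLmo3 over AdLacZ was -0.08 over the members and 0.00 over all genes tested. For the large subunit the median was -0.08, with 37 of 46 below 0, and for the small subunit it was -0.10, with 29 of 32 below 0. Ranges of the 2 groups did not overlap for 16 members (9 large, 7 small), all lower in AdLmo3, whereas 26.5% of all genes had non-overlapping groups and 13.2% had them with AdLmo3 lower. Scaling moved these counts: with total counts in place of TMM (the trimmed mean scaling of edgeR), 76 members lay below 0, their median was -0.15 beside -0.07 for all genes, and 37 members had non-overlapping groups, all lower in AdLmo3, where 30.7% of all genes had them and 22.5% had them with AdLmo3 lower. The lean also rested on 2 libraries, since the median was -0.04 without AdLacZ replicate 2 and -0.04 without AdLmo3 replicate 3, with 50 of 78 members below 0 in each case.

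The depth allowed narrow limits on each member. Among the 75 members with at least 100 counts in every library, log2 fold changes ran from -0.24 to 0.07, and the standard error was between 0.0536 and 0.144 (median 0.0774). All 75 intervals at 95% lay within 0.5 of 0 on the log2 scale, the lowest end being -0.48 and the highest 0.36. The interval excluded 0 for 6 members before adjustment. For comparison, among the 4523 genes with a mean of 50 to 800 CPM, 289 were called, and the smallest fold change called there was 0.25 on the log2 scale in either direction. The spread over all 6 libraries was like that of other genes of this level, with a median coefficient of variation of 6.81% over 73 members and 7.71% over those 4523 genes.

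**Figure D2:**
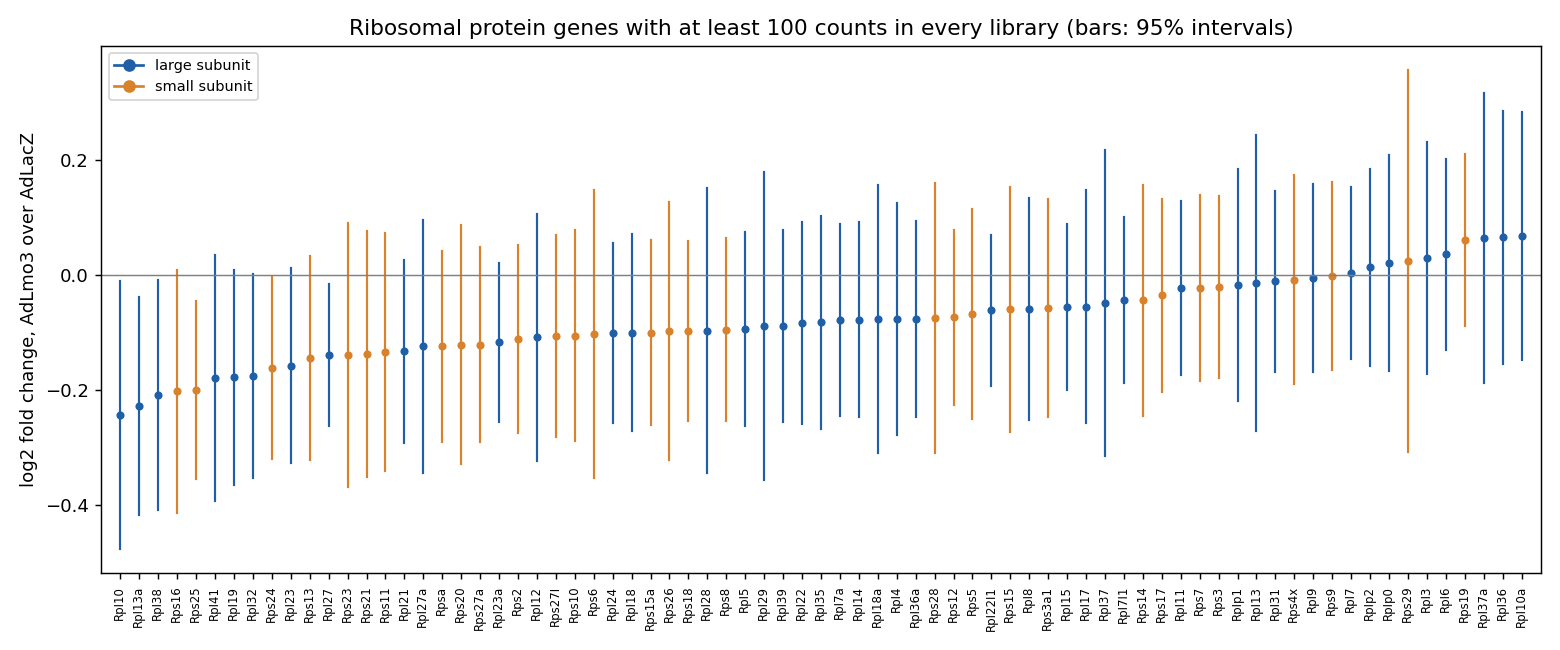
Log2 fold change of AdLmo3 over AdLacZ (points) with 95% intervals (bars) for the 75 members with at least 100 counts in every library, ordered by value and coloured by subunit. Values run from -0.24 for Rpl10 to 0.07 for Rpl10a, and the intervals of 6 members lie wholly below 0 before adjustment.

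The members moved together from library to library. Relative to its own mean over the 6 libraries, the median member lay at -0.01, 0.13 and -0.01 on the log2 scale in AdLacZ replicates 1, 2 and 3, and at 0.01, 0.01 and -0.16 in AdLmo3 replicates 1, 2 and 3. AdLacZ replicate 2 was above the member's own mean for 75 of 78 members and was the highest of all 6 libraries for 57. AdLmo3 replicate 3 was below it for 75 of 78 and was the lowest of all 6 for 62. The other 4 libraries lay near 0, so that replicates within a group differed by more than the members' median fold change. Both subunits shared the pattern, at 0.14 and 0.12 in AdLacZ replicate 2 and at -0.15 and -0.17 in AdLmo3 replicate 3 for the large and the small subunit. The median of all genes stayed between -0.01 and -0.00 in every library. TMM scaling holds that median near 0, so it cannot show whether other genes shared the pattern. The 74 mitochondrial ribosomal protein genes did not share it, with medians between -0.03 and 0.02. AdLmo3 replicate 3 also had the fewest gene counts (28035639) and the largest percentage of reads assigned to no gene, 8.94% beside 7.15% to 8.18% in the other libraries. AdLacZ replicate 2 had the most gene counts (38332335) and the next largest such percentage, 8.18%. The part of depth or of unassigned reads in the pattern was not tested.

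Few members departed from this movement. *Rpl7*, *Rpl7l1* and *Rps27l* lay just below their own mean in AdLacZ replicate 2, at -0.01 each on the log2 scale. *Rps19* (0.02), *Rps27l* (0.02) and *Rps24* (0.00) did not fall below their own mean in AdLmo3 replicate 3. Of these, *Rps27l* and *Rpl7l1* are paralogues named after a core ribosomal protein, while *Rps19* and *Rps24* are core small subunit proteins mutated in Diamond-Blackfan anaemia. By length of coding sequence, the pattern was alike in AdLmo3 replicate 3 and weaker for the longest sequences in AdLacZ replicate 2. In AdLacZ replicate 2 the median was 0.15 for the 25 members with coding sequences of 75 to 405 bases, 0.14 for the 26 of 408 to 582 bases and 0.10 for the 24 of 588 to 1257 bases. In AdLmo3 replicate 3 these medians were -0.16, -0.16 and -0.15. The 12 members with C and pyrimidines at the annotated start had medians of 0.15 and -0.16 in those libraries, beside 0.11 and -0.15 for 47 others with a window, and their median log2 fold changes were -0.10 and -0.08.

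**Figure D3:**
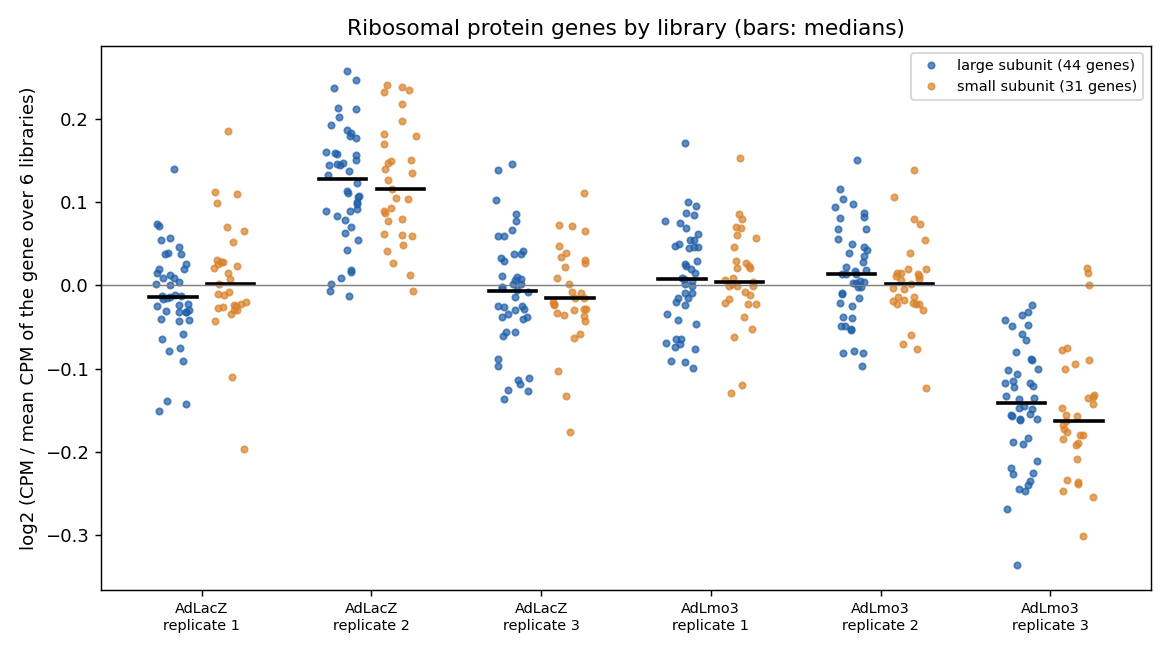
Log2 ratio of a member's CPM to its own mean over the 6 libraries (vertical axis) in each library, for the 44 large subunit (blue) and 31 small subunit (orange) genes with at least 100 counts in every library. Black bars are medians. Nearly all points lie above 0 in AdLacZ replicate 2 and below 0 in AdLmo3 replicate 3.

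When libraries were instead scaled so that the median member was equal in all of them, a choice made after the library pattern had been seen, members could be compared with each other. On that scale the groups overlapped for 61 of 78 members and were apart for the other 17, in 9 of them with AdLmo3 higher and in 8 with AdLmo3 lower, where 22.8% of all genes had non-overlapping groups. Centring on the members fixes the balance of the directions. Of the members, edgeR called 0, none having an unadjusted p under 0.05. The fold changes ran from -0.23 to 0.27 on the log2 scale, and the smallest edgeR adjusted p was 0.463. *Rpl13a* measured 416, 418 and 406 CPM in AdLacZ and 374, 377 and 368 CPM in AdLmo3 on that scale, so that its groups stayed apart, with a log2 fold change of -0.15 ± 0.0923 (SE). In the other direction *Rpl10a* measured 72.9, 74.5 and 70.4 CPM in AdLacZ and 85.5, 78.5 and 77.1 CPM in AdLmo3, a log2 fold change of 0.15 ± 0.0898 (SE), and *Rpl36* 89.5, 100.3 and 91.9 CPM against 102.6, 106.6 and 103.1 CPM, a log2 fold change of 0.15 ± 0.0926 (SE).

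*Rplp0*, *Rplp1* and *Rplp2* form the stalk that brings elongation factors to the ribosome, and *Rpl12* sits at its base. *Rplp0*, which served as the reference transcript for Q-PCR in the study, measured 601, 592 and 551 CPM in AdLacZ replicates 1, 2 and 3 and 628, 603 and 538 CPM in AdLmo3 replicates 1, 2 and 3. Its groups overlapped widely, since AdLmo3 held both the highest and the lowest library. The means were 581 ± 27.1 and 590 ± 46.2 CPM (SD, n = 3 each), and the log2 fold change was 0.02 with a 95% interval from -0.17 to 0.21 (edgeR adjusted p = 0.924). *Rplp0* turned to -0.05 with total counts as the scale. *Rplp1* measured 533, 556 and 479 CPM in AdLacZ and 547, 530 and 473 CPM in AdLmo3. *Rplp2* stood at 264, 298 and 276 CPM in AdLacZ and at 273, 297 and 276 CPM in AdLmo3, and *Rpl12* at 323, 375 and 329 against 350, 313 and 291 CPM. All 4 stalk genes overlapped between the groups and 0 were called.

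*Rpl5* and *Rpl11* carry the 5S ribosomal RNA into the large subunit and, when unassembled, bind the p53 ligase MDM2. *Rpl11* was among the steadiest members, at 212, 224 and 204 CPM in AdLacZ and 214, 211 and 205 CPM in AdLmo3, a coefficient of variation of 3.5% over all 6 libraries. *Rpl5* measured 220, 242 and 234 CPM in AdLacZ and 225, 224 and 203 CPM in AdLmo3. Both genes overlapped between the groups, with log2 fold changes of -0.02 for *Rpl11* and -0.09 for *Rpl5*.

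The proteins around the exit tunnel, where the new chain leaves the large subunit, comprised 8 members, of which 7 were tested, all with values below 0 and 0 called. In *Rpl38*, a small protein of the large subunit linked to the translation of Hox transcripts, CPM were 74.5, 87.8 and 73.9 in AdLacZ and 68.6, 72.4 and 63.5 in AdLmo3. *Rpl19* measured 348, 373 and 353 CPM in AdLacZ and 321, 342 and 286 CPM in AdLmo3, and *Rpl23a*, which helps anchor the signal recognition particle, 230, 229 and 230 CPM against 209, 219 and 208 CPM. These 3 had non-overlapping groups, all lower in AdLmo3, where 26.5% of all genes had them and 13.2% had them with AdLmo3 lower. None of the 3 passed the adjusted test. Log2 fold changes were -0.21 for *Rpl38*, -0.18 for *Rpl19* and -0.12 for *Rpl23a*, with edgeR adjusted p of 0.221, 0.266 and 0.323. The other 4 tested members of this group overlapped, *Rpl31* for instance at 155, 170 and 156 CPM against 159, 166 and 154 CPM.

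Proteins that line the messenger RNA channel or the decoding site of the small subunit comprised 5 members, all tested, with log2 fold changes from -0.14 to -0.00 and 0 called. *Rps3*, at the channel entry, was the most even of them, at 448, 481 and 448 CPM in AdLacZ and 463, 462 and 431 CPM in AdLmo3. *Rps9* gave 296, 318 and 289 CPM against 313, 304 and 285 CPM. *Rps2* alone of the 5 had non-overlapping groups, narrowly, at 256, 245 and 237.1 CPM against 236.7, 234 and 212 CPM. Of all genes, 26.5% had non-overlapping groups and 13.2% had them with AdLmo3 lower.

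Outside those groups, the members with the lowest log2 fold changes were *Rpl35a* (-0.32), *Rpl10* (-0.24), *Rpl13a* (-0.23) and *Rps16* (-0.20), in addition to *Rpl38*. *Rpl10*, which joins the large subunit late and helps to form the sites for transfer RNA, measured 230, 261 and 251 CPM in AdLacZ and 233, 213 and 181 CPM in AdLmo3. Its groups overlapped through AdLmo3 replicate 1, and the 95% interval ran from -0.48 to -0.01 (edgeR adjusted p = 0.223). *Rpl13a*, a surface protein of the large subunit and a host gene of small nucleolar RNAs, stood at 415, 457 and 405 CPM in AdLacZ and at 377, 380 and 333 CPM in AdLmo3. Its groups did not overlap, and its interval ran from -0.42 to -0.04 (edgeR adjusted p = 0.168). Of the 75-base stretches in the *Rpl13a* transcript, 56.3% are shared with an overlapping annotated gene. The protein-coding gene that overlaps its exons, *Gm45713*, is not among the gene symbols counted. *Rps16* measured 80.3, 96.7 and 86.1 CPM in AdLacZ and 81.9, 77.7 and 69.0 CPM in AdLmo3, with an overlap between the groups. *Rpl35a* was counted far below the others, at 3.99, 5.04 and 4.22 CPM against 4.0, 3.23 and 3.41 CPM.

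*Rps25*, *Rpl27* and *Rps24* were singled out after their values had been seen, for their small unadjusted p. *Rps25*, a small subunit protein used by some viral internal ribosome entry sites, measured 123, 127 and 118 CPM in AdLacZ and 110, 109 and 100 CPM in AdLmo3. Its groups were apart, with a log2 fold change of -0.20 ± 0.0672 (SE) and an interval from -0.35 to -0.04, and 43.4% of its 75-base stretches are shared with an overlapping annotated gene. *Rpl27* was tight within groups, at 71.1, 71.6 and 72.7 CPM against 64.3, 64.7 and 66.5 CPM, a log2 fold change of -0.14 ± 0.0536 (SE) and an edgeR adjusted p of 0.188. *Rps24* measured 227, 213 and 228 CPM in AdLacZ and 193, 193 and 211 CPM in AdLmo3, the groups being separate by a narrow margin (edgeR adjusted p = 0.232).

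The highest log2 fold changes belonged to *Rps27* (0.19), *Rpl39l* (0.09), *Rpl10a* (0.07), *Rpl36* (0.07) and *Rpl37a* (0.06). Of these, *Rps27* and *Rpl39l* had few counts, 11 to 34 and 6 to 33 per library, and standard errors of 0.430 and 0.626. *Rpl10a*, the protein of the L1 stalk that guides transfer RNA out of the ribosome, measured 72.7, 81.6 and 70.1 CPM in AdLacZ and 86.3, 79.1 and 69.7 CPM in AdLmo3. *Rpl36* stood at 89.3, 110 and 91.6 CPM against 104, 107 and 93.2 CPM, and *Rpl37a* at 124, 151 and 125 against 145, 151 and 122 CPM. All 5 genes overlapped between the groups, and the values of *Rpl10a*, *Rpl36* and *Rpl37a* turned to -0.00, -0.01 and -0.01 with total counts as the scale.

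**Figure D4:**
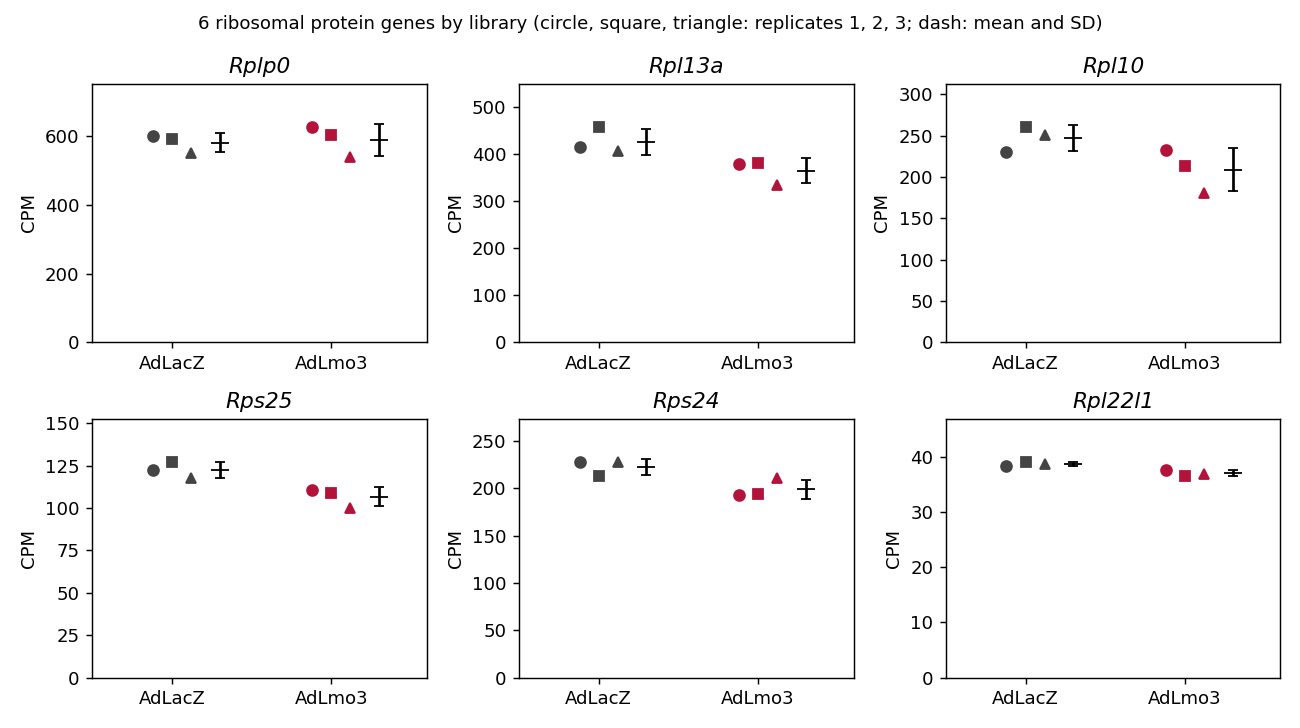
CPM of Rplp0, Rpl13a, Rpl10, Rps25, Rps24 and Rpl22l1 in each library, with axes starting at 0. Circles, squares and triangles are replicates 1, 2 and 3 of AdLacZ (grey) and AdLmo3 (red), and the dash with bars is the mean and SD of 3 libraries. The groups overlap for Rplp0 and Rpl10 and lie apart for the other 4, none of which was called.

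Several ribosomal proteins have a second gene that encodes a close relative. *Rpl22* measured 177, 195 and 186 CPM in AdLacZ and 172, 190 and 165 CPM in AdLmo3, and its relative *Rpl22l1* 38.3, 39.0 and 38.7 CPM against 37.6, 36.6 and 36.9 CPM. The latter varied by only 2.57% over the 6 libraries, and its groups were apart with a log2 fold change of -0.06, which turned to 0.02 on the scale set by the members. *Rpl7* was as steady, at 453, 450 and 452 CPM against 467, 459 and 432 CPM (coefficient of variation 2.56%), and *Rpl7l1* stood at 99.4, 93.7 and 94.6 CPM against 97.4, 89.3 and 92.4 CPM. *Rpl3* measured 347, 403 and 384 CPM against 395, 410 and 352 CPM, while its muscle relative *Rpl3l* had 0 to 5 counts per library. *Rpl39* gave 112, 125 and 109 CPM against 105, 112 and 108 CPM, and *Rpl39l*, best known from the male germ line, at most 33 counts. *Rpl10l*, another germ line gene, had 0 to 2 counts, and *Rps4l* 0 to 1, beside *Rps4x* at 447, 466 and 450 CPM against 481, 466 and 409 CPM. In the 6 pairs whose coding sequences were compared (*Rps4x* and *Rps4l* were not), identity ran from 50.2% (*Rpl7* and *Rpl7l1*) to 85.0% (*Rpl39* and *Rpl39l*), and the longest identical run was 38 bases, shorter than a read.

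In 1 pair the relative was counted at a far higher level than the core gene. *Rps27* had 0.506, 0.793 and 0.324 CPM in AdLacZ and 0.513, 0.923 and 0.407 CPM in AdLmo3, whereas *Rps27l* had 62.6, 54.8 and 53.9 CPM and 50.7, 52.9 and 55.7 CPM. Both coding sequences are 252 bases long and 76.2% identical. They are shown over coding bases 40 to 114, counted from the A of the start codon, with the 12 differing bases in capitals (GRCm38, GENCODE vM21 transcripts), because the printed stretch is as long as a read and shows that a read from here can tell the genes apart.
*Rps27* (gene at chr3:90212522-90213651, minus strand): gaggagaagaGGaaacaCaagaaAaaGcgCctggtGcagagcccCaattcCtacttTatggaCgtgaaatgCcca
*Rps27l* (gene at chr9:66946086-66949516, plus strand): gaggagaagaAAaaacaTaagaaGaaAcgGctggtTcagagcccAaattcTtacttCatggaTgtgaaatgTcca
*Rps27* was, however, not unique against other annotated genes: all 178 of its coding 75-base stretches occur in at least 1 of them, and 98.5% of the stretches of its transcript are shared with the retrogene *Rps27rt*, which had 0 counts in all 6 libraries.

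The level of each member per length followed an order in which a few genes stood out at either end. On the scale of CPM per kilobase of exon union, the mean over 6 libraries was highest for *Rplp1* (1042), *Rps15* (526), *Rpl4* (368), *Rpl8* (361) and *Rplp0* (353), with a median of 102 over the 78 members tested. *Rps15*, at the decoding site, measured 329, 364 and 322 CPM in AdLacZ and 326, 357 and 290 CPM in AdLmo3, and *Rpl4*, which reaches into the exit tunnel, 727, 804 and 742 CPM against 775, 734 and 648 CPM. *Rpl8*, near the site of peptide bond formation, stood at 487, 538 and 478 CPM against 510, 492 and 441 CPM. The upper end depended on the length used, as only 1 of these 5 genes (*Rplp1*) stayed among the 5 highest per kilobase of coding sequence. The lowest levels per kilobase of exon union were those of *Rpl39l* (0.552), *Rps27* (0.554), *Rpl35a* (1.13), *Rpl29* (10.0) and *Rps19* (13.8), and the first 4 were also the lowest 4 per kilobase of coding sequence. *Rpl29* measured 11.0, 13.4 and 10.4 CPM in AdLacZ and 11.0, 11.3 and 10.5 CPM in AdLmo3, and *Rps19* 64.8, 65.7 and 58.8 CPM against 64.0, 68.1 and 65.4 CPM.

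Members that every ribosome contains were also among those with too few counts to test. *Rpl26*, which lies by the exit tunnel, had 0 counts in all 6 libraries, which allows at most 0.0783 to 0.107 CPM per library (3 counts, counting error only). *Rpl30* had 4 to 9 counts and *Rpl34* 1 to 8 counts per library. The other members not tested were *Rpl3l*, *Rpl10l* and *Rps4l*. Counts this low are values of the deposited tables and need not be the amount of transcript in the cells. Sequence shared with other genes is given beside them, since a read found in several places may be assigned to none: of 83 members with an annotated transcript, 78 share at least 1 stretch of 75 bases with a pseudogene, and the median member shares 43.7% of its stretches with another annotated gene. These shares include genes that overlap the member's own position. *Rpl26* shares 48.9% and *Rpl34* 30.5%, all with genes elsewhere. *Rpl30* shares 71.8%, with 24.5% of its stretches in genes elsewhere and 47.3% in genes that overlap it. For other members, *Rpl9* shares 91.3% and had a mean of 484 CPM in AdLacZ, and *Rpl3* shares 83.2% and had a mean of 378 CPM. Levels of members with much shared sequence are therefore uncertain, and the part of shared sequence in the low counts was not tested. The stretch of *Rpl26* that occurs in the most other genes is printed as an example: it covers coding bases 33 to 107, is found in 3 other annotated genes, and 71.2% of the 361 coding stretches of *Rpl26* are shared in this way (no base is set in capitals).
*Rpl26* (gene at chr11:68901583-68906989, plus strand, GRCm38): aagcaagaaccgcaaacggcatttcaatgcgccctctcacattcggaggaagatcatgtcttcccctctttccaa

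**Figure D5:**
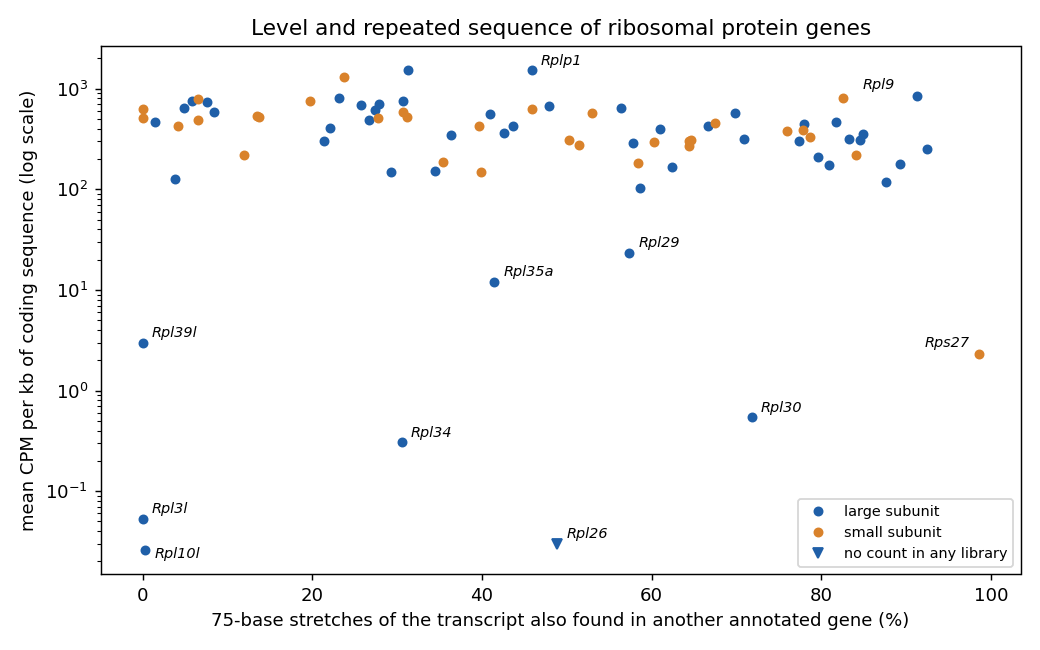
Mean CPM per kilobase of coding sequence over the 6 libraries (log scale) against the percent of 75-base stretches of the transcript that occur in another annotated gene, for 83 members. The triangle marks Rpl26, which had no count and is drawn at the lower edge. Of the members drawn, 9 lie below 30 and are named, as are Rplp1 and Rpl9.

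Of the ribosomal proteins outside the symbol rule, *Fau*, a ubiquitin-like fusion with a small subunit protein, measured 178, 223 and 184 CPM in AdLacZ and 169, 190 and 146 CPM in AdLmo3. *Gnb2l1* (also called *Rack1*), the signalling scaffold on the small subunit, gave 673, 708 and 651 against 663, 673 and 599 CPM, and *Rpl36al* 20.5, 22.5 and 18.1 against 19.9, 20.9 and 17.8 CPM. The groups overlapped for all 3, with log2 fold changes of -0.21 for *Fau*, -0.07 for *Gnb2l1* and -0.06 for *Rpl36al*, and none of them was called by edgeR at an adjusted p under 0.05 (0.364, 0.665 and 0.807). The 74 mitochondrial ribosomal protein genes had a median of -0.01, with 33 above and 41 below 0, and 1 was called, *Mrpl22* (-0.35, edgeR adjusted p = 0.0345), a call that was lost with each library left out (edgeR adjusted p from 0.0724 to 0.146).

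Each list of genes that serve the ribosome gave 1 call, where 4.28% of all genes tested were called. Of 42 translation factors and related genes, 34 lay below 0 (median -0.11 on the log2 scale). At an unadjusted p under 0.05 in edgeR, 13 passed, all lower in AdLmo3, where 9.54% of all genes passed with AdLmo3 lower. Groups did not overlap for 17 of the 42, with AdLmo3 lower in 16 and higher in 1. Of all genes, 26.5% had non-overlapping groups and 13.2% had them with AdLmo3 lower. The gene called was *Eif3c*, a subunit of the initiation factor that prepares the small subunit. *Eif3c* fell from 413, 426 and 433 CPM to 339, 328 and 315 CPM (-0.37, edgeR adjusted p = 0.0200). The call of *Eif3c* was lost without AdLacZ replicate 2 (edgeR adjusted p = 0.0572), AdLacZ replicate 3 (0.107), AdLmo3 replicate 2 (0.0942) or AdLmo3 replicate 3 (0.0661), and on the scale set by the members (0.151). By library, that list lay at 0.02, 0.08 and 0.08 in AdLacZ and at 0.00, -0.07 and -0.09 in AdLmo3. Like the ribosomal proteins, it was lowest in AdLmo3 replicate 3 and highest in AdLacZ replicate 2, there only narrowly above AdLacZ replicate 3. Its order was unlike that of the ribosomal proteins in AdLacZ replicate 3 and AdLmo3 replicate 2. Of 55 genes for ribosome assembly, 39 lay below 0 with a median of -0.07, and 1 was called: *Pes1*, needed for the processing of large subunit RNA, fell from 115, 116 and 116 CPM to 98.5, 92.9 and 96.1 CPM (-0.27, edgeR adjusted p = 0.0417). The call of *Pes1* was lost without the count filter (edgeR adjusted p = 0.0581), on the scale set by the members (0.378) and with each library left out (0.0665 to 0.161). A list of 18 genes held regulators of ribosomal protein synthesis together with *Trp53*, *Mdm2*, *Cdkn1a* and *Zfp598*. Of these 18, 9 lay above and 9 below 0, and 1 was called. The gene called, *Eif4ebp1*, is the mTORC1 substrate that holds back cap-dependent initiation. *Eif4ebp1* rose from 225, 239 and 217 CPM to 330, 374 and 390 CPM (0.68, edgeR adjusted p = 0.00593). Without AdLacZ replicate 3, the edgeR adjusted p of *Eif4ebp1* was 0.0529. In the same list *Mlst8*, a subunit of mTORC1, and *Eif4ebp2*, a relative of *Eif4ebp1*, had non-overlapping groups without being called, with log2 fold changes of -0.21 and 0.18 (edgeR adjusted p = 0.165 and 0.125). *Myc*, which activates ribosomal protein genes, overlapped between the groups at -0.04, as did *Mtor* at 0.08 and *Larp1* at 0.05.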

How the data were processed

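RNA-Seq was carried out by the authors on 6 libraries of 3T3-L1 adipocytes (NEBNext Ultra II kit, 75 bp single reads). Per the labels, bcl2fastq, STAR 2.5.0b and DESeq2 1.6.3 were used with the mm10 assembly, whereas the counting program, its strand setting and the annotation are not given in the sources used here. The deposited values are whole-number counts of reads per gene symbol, 1 table per library and without normalization. Lines for reads of no gene (7.15% to 8.94%) or of several (0.476% to 0.543%) were left out. Without a known strand setting, reads of a member and of an antisense gene cannot be told apart.

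Groups were taken from the labels. The tests used edgeR 4.0.16 under R 4.3.3 (quasi-likelihood fit on the group alone, TMM scaling, filterByExpr) with Benjamini-Hochberg adjustment over 12766 genes at 0.05. CPM are TMM-scaled counts per 1000000, while floors of 3 counts are given without TMM and cover counting error only. Standard errors and 95% intervals come from that fit. Alternatives were DESeq2 1.42.0, limma 3.58.1 (voom), other scalings and filters, the replicate block, -ps symbols added, and each library left out. Scaling on the members, coding lengths and the restriction to members with under 10% shared stretches were added after seeing the data. The code was tested on simulated counts. Chi-square values per degree of freedom between replicates of 22.9 to 61.6 showed no library deposited more than once. Stretches of 75 bases, coding sequences and gene positions came from GENCODE vM21 (GRCm38), matched for 83 members, and start windows from RefSeq (GRCm38.p6), matched for 63. Figures were drawn with matplotlib 3.10.9.

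The members and gene lists were chosen with earlier results of these data known. Named were members called, the 5 highest and 5 lowest log2 fold changes and levels per length, *Rplp0*, members with paralogues, members not tested, 4 structural groups, called genes of the related lists and *Lmo3*. *Rps25*, *Rpl27*, *Rps24*, the steadiest members, those departing from the library pattern, the ribosomal proteins outside the symbol rule (1 of which is not reported here), and *Rpl9*, *Myc*, *Mtor*, *Larp1*, *Mlst8* and *Eif4ebp2* were named after their values were seen, and the printed sequences were chosen in the same way.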

Additional observations from a re-analysis of the deposited data

How the results depend on the processing

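No member was called under any of the 16 alternatives run. The median log2 fold change of the members was -0.11 to -0.04 with a library left out, -0.15 with total counts as the scale and -0.08 for members with under 10% shared stretches, while scaling on the members sets it near 0 by construction. Large minus small subunit medians ranged from 0.0013 to 0.026 with a library left out, and members with non-overlapping groups from 17 to 26, or 21.8% to 33.3% of members beside 32.5% to 40% of all genes, non-overlap being more frequent with fewer libraries. With AdLmo3 lower, the shares with a library left out were 20.5% to 33.3% of members beside 16.4% to 20.6% of all genes. With total counts there were 37 members (47.4%), all lower in AdLmo3. Of all genes, 30.7% had non-overlapping groups on that scale and 22.5% had them with AdLmo3 lower. All genes called were 1096 with DESeq2 and 77 to 501 with a library left out, where fewer samples are fitted. Per kilobase of coding sequence, 1 of the 5 highest members stayed among them. With total counts the log2 fold changes of *Rplp0* (-0.052), *Rpl10a* (-0.0048), *Rpl36* (-0.0069), *Rpl37a* (-0.0071), *Rpl7* (-0.070) and *Rpl3* (-0.042) turned below 0, and scaled on the members those of *Rpl22l1* (0.020) and *Rpl7l1* (0.036) turned above 0. With a library left out, *Rplp0* ranged from -0.021 to 0.083, *Rps27* from -0.23 to 0.58, *Rpl39l* from -0.77 to 0.68, *Rpl10a* from -0.0020 to 0.14, *Rpl7* from -0.014 to 0.036 and *Rpl3* from -0.028 to 0.092. The cause of these changes was not tested. Same-numbered libraries deviated from their group means with correlations of 0.03, 0.18 and 0.18, and differently numbered libraries with correlations from -0.26 to 0.15. The values of 0.18 thus lay above those of all differently numbered libraries, but all were low, and the numbers were not taken to pair the samples. With the replicate block, 498 genes and 0 members were called, the members' median was -0.08, and *Pes1* (edgeR adjusted p = 0.0669) and *Mrpl22* (0.0557) were no longer called. The restriction to sequence unique in the genome could not be run, as only transcripts were used here.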
